A study of Mus musculus with 2 samples.

Results

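The Mir99, Mir100 and Mir125 families comprised 6 of the 1973 microRNA genes in the count tables, and were examined in whole limbs of B6NCrl mouse embryos aged 14.5 days. Members were the genes whose Ensembl identifiers carry the symbols Mir99a, Mir99b, Mir100, Mir125a, Mir125b-1 and Mir125b-2 in the mouse annotation. They were selected on their read levels in these samples, that is on the own-strand counts scaled to the library sum, so those levels are given as a description with no test. The study held 1 group of 2 untreated samples, biological replicates 1 and 2, each made from 4 limbs, and small RNAs under 30 nucleotides were sequenced. The labels gave both samples 1 donor and 1 pup number, different collection days and a pooled sex, so it is uncertain whether each came from 1 embryo. With no second condition, the questions were how the reads of these families fell on their 3 paralogous loci and how far the 2 libraries differed.

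MicroRNAs are short RNAs that guide repression of mRNAs, mainly through the seed, bases 2 to 8 from the 5′ end. The families lie in clusters that also hold a let-7 gene, an arrangement kept between insects and mammals, in which a Mir99 or Mir100 gene comes first, let-7 in the middle and a Mir125 gene last. miR-125 is the vertebrate relative of lin-4, which with let-7 times developmental stages in the worm Caenorhabditis elegans, and Lin28a mRNA is among its known targets. miR-99 and miR-100 are known to repress the mRNA of the growth kinase gene Mtor. The genes of a cluster are generally described as products of a shared primary transcript.

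Mature sequences are shown because they set both the family membership and which reads could be assigned to a gene. They come from the RefSeq annotation of GRCm38.p6, which held mature sequences for all 6 members and hairpins for 4 of them. The seed is in capitals.
miR-99a-5p: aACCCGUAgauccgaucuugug
miR-100-5p: aACCCGUAgauccgaacuugug
miR-99b-5p: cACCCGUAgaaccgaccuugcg
miR-125a-5p: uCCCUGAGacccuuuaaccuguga
miR-125b-5p: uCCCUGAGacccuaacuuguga
miR-125b-1-3p: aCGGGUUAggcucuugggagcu
miR-125b-2-3p: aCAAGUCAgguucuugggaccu
The first 3 sequences share the seed ACCCGUA, and the next 2 share the seed CCCUGAG. miR-99a-5p and miR-100-5p differed by 1 substitution, U16A, with positions counted from 1 at the 5′ end and the base of miR-99a given first. miR-99b-5p differed from miR-99a-5p at 4 positions, A1C, U11A, U16C and U21C, all outside the seed. miR-125a-5p is 24 nucleotides long against 22 in miR-125b-5p, and their first 13 bases are the same.

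The 5p sequence of Mir125b-1 and Mir125b-2 is identical, and the other 5p sequences of the members each occurred in 1 gene of the RefSeq entries. Every member's 3p sequence also occurred in 1 gene, and those of the Mir125b copies differed by 5 substitutions, G3A, G4A, U7C, C11U and G20C, with the base of the Mir125b-1 product first. The whole genome was not searched for further copies. Reads that aligned in several places had not been assigned to genes. They numbered 2865223 in replicate 1 and 2735942 in replicate 2, or 31.8% and 32.6% of all reads. A read of the whole miR-125b-5p fits both copies, so the counts of Mir125b-1 and Mir125b-2 are lower limits, and the tables do not separate the 5p from the 3p arm. miR-99a-5p and miR-100-5p are the same over their first 15 bases, so a read with a changed base at position 16 could move between them, and how often that happened was not tested. The hairpins below, with the mature arms in capitals, show where the 5p and 3p arms lie in Mir99a and Mir100 and where the unique 3p arm of Mir125b-1 lies.
Mir99a hairpin: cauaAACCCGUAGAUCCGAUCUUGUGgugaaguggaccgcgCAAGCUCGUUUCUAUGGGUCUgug
Mir100 hairpin: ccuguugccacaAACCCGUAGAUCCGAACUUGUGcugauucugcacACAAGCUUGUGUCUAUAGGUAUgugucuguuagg
Mir125b-1 hairpin: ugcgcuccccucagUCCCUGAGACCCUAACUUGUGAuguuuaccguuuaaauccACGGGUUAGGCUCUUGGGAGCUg

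In GRCm38 (mm10) coordinates all 6 genes lie on the plus strand. Mir99a (ENSMUSG00000065530.1) lies on chromosome 16 from 77598936 to 77599000 and Mir125b-2 (ENSMUSG00000065472.1) on the same chromosome from 77646273 to 77646343. Both lie in introns of the noncoding host gene Mir99ahg, and the last bases of Mir125b-2 also overlap an exon of the unclassified transcript C130023A14Rik. Mir100 (ENSMUSG00000093011.1) lies on chromosome 9 from 41531425 to 41531504 and Mir125b-1 (ENSMUSG00000093354.1) from 41581926 to 41582002. Both are intronic in 3110039I08Rik, a noncoding gene whose place RefSeq gives to Mir100hg, and Mir125b-1 also overlaps an exon of Gm28119. Mir99b (ENSMUSG00000065396.1) lies on chromosome 17 from 17830188 to 17830257 and Mir125a (ENSMUSG00000065479.1) from 17830812 to 17830879. Both are within the protein-coding gene Spaca6, Mir99b in an intron and Mir125a overlapping an exon of 1 of the 3 transcripts that span it. From the start of the first gene to the end of the last, the locus of Mir99b spans 692 bp, against 47408 bp for that of Mir99a and 50578 bp for that of Mir100.

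The libraries held 4608816 counts in replicate 1 and 4144385 counts in replicate 2 on the own strand of a microRNA gene. Levels below are counts per 1000000 of these (CPM), given as mean ± SD over 2 libraries. Each read stands for a small RNA, so levels were not divided by gene length. How evenly different microRNAs yield reads was not measured, and ratios between genes therefore compare reads. Markers of limb tissue were present, with mean levels between 5226 CPM for the skeletal muscle gene Mir206 and 57289 CPM for the cartilage gene Mir140, while the liver gene Mir122 had 6.29 and 13.5 CPM.

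The 6 members took 8.27% of the microRNA counts in replicate 1 and 8.51% in replicate 2. Most of these reads belonged to the 3 genes with the seed ACCCGUA, which summed to 77956 ± 1284 CPM. The 3 Mir125 genes summed to 5968 ± 430 CPM. The ratio of the sums was 13.6 in replicate 1 and 12.6 in replicate 2, and it holds for singly aligned reads only, because the reads of whole miR-125b-5p are missing from the Mir125 sum. In whole limb, fewer cells that hold a microRNA and less of it per cell cannot be told apart.

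Mir99a led the families in singly aligned reads, with 50365 CPM in replicate 1 and 49949 CPM in replicate 2, a mean of 50157 ± 294 CPM. This SD depends on the scaling, with 1821 CPM under TMM scaling and 2063 CPM under DESeq2 size factors around nearly the same mean. The gene ranked 4th in replicate 1 and 5th in replicate 2 among all genes. This rank and those below hold for singly aligned reads only, since reads with several alignments were not assigned to genes. It rested on 232125 counts in replicate 1 and 207009 in replicate 2, and gave 60.9% of the members' counts in replicate 1 and 58.7% in replicate 2. Its nearest neighbours by mean level over the 2 libraries were Mir196b of the HoxA cluster just above, at 51975 ± 3475 CPM, and Mir23b just below, at 44668 ± 2530 CPM. The order of Mir99a and Mir196b was not resolved, since Mir99a was the higher in replicate 1 and the lower in replicate 2.

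Mir99b had 15323 CPM in replicate 1 and 17181 CPM in replicate 2 (16252 ± 1314 CPM), and ranked 17th in both. Mir100, which shares all but 1 base of its 5p sequence with Mir99a, had 11360 and 11734 CPM (11547 ± 264 CPM), and ranked 22nd in replicate 1 and 19th in replicate 2. Mir99a was 3.29 times Mir99b in replicate 1 and 2.91 times in replicate 2. Mir99b in turn was 1.35 and 1.46 times Mir100 in replicates 1 and 2. The order of these 3 genes was the same in both libraries.

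Among the Mir125 genes, Mir125a was the most abundant in singly aligned reads, with 3815 CPM in replicate 1 and 4274 CPM in replicate 2 (4044 ± 324 CPM). Its nearest neighbours by mean level were Mir296, at 4056 ± 26.4 CPM, and Mir369, at 3890 ± 253 CPM, and all 3 overlapped in their spread. Mir125b-1 had 1151 and 1317 CPM in replicates 1 and 2 (1234 ± 118 CPM). The other copy, Mir125b-2, had 697 CPM in replicate 1 and 681 CPM in replicate 2 (689 ± 11.6 CPM), the lowest of the members. These levels rest on 17583 and 17712 counts of Mir125a, 5306 and 5460 of Mir125b-1 and 3214 and 2822 of Mir125b-2 in replicates 1 and 2. The exact Clopper-Pearson 95% interval of Mir125b-2 ran from 673 to 722 CPM in replicate 1 and from 656 to 707 CPM in replicate 2, so its 2 values overlapped in counting error, whereas those of Mir125a (3759 to 3872 CPM against 4211 to 4337 CPM) did not. The ranks of the Mir125 genes ran from 51st and 47th for Mir125a in replicates 1 and 2 to 113th and 112th for Mir125b-2.

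Mir125a was 3.31 times Mir125b-1 in replicate 1 and 3.24 times in replicate 2. But this order compares a gene whose 5p sequence is unique among the RefSeq entries with one whose 5p reads fit a second copy. Mir125b-1 was 1.65 and 1.93 times Mir125b-2. For these copies the reads counted were those that told the copies apart, so the ratio need not be that of their shared 5p product. The reads with several alignments, of all genes together, outnumbered the counts of both Mir125b copies 336-fold in replicate 1 and 330-fold in replicate 2. How many of them were miR-125b-5p was not given in the tables.

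**Figure D1:**
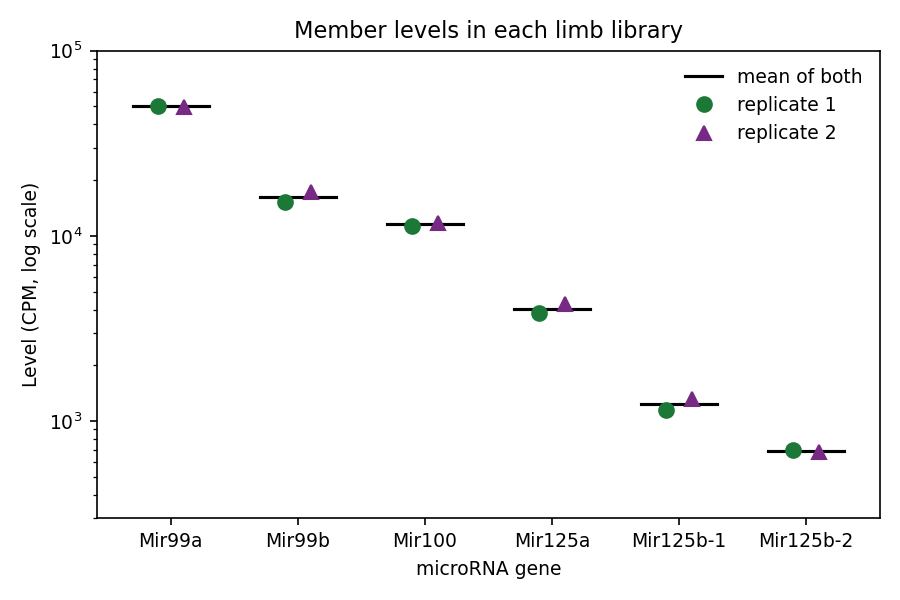
Level of each member in CPM on a log scale, with a circle for replicate 1, a triangle for replicate 2 and a line at their mean. In singly aligned reads the levels fall from Mir99a at 50157 CPM to Mir125b-2 at 689 CPM, and the symbols of no gene overlap in height with those of the next. The Mir125b levels are lower limits, so their place among the members over all reads was not resolved.

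**Figure D2:**
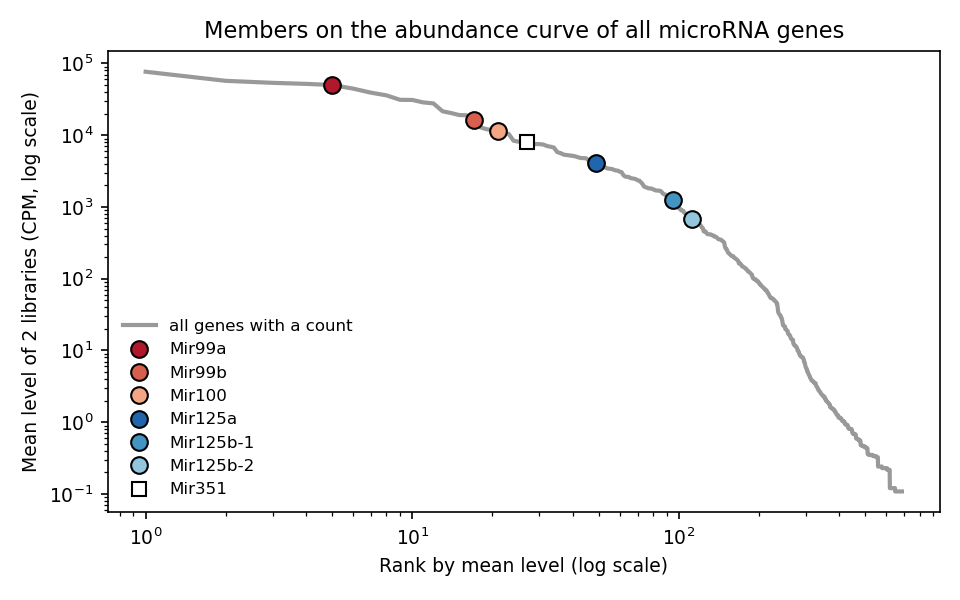
Mean level of every microRNA gene with a count against its rank, both on log scales, with the 6 members as coloured points and Mir351 as a square. In singly aligned reads Mir99a lies at rank 5, Mir99b at 17 and Mir100 at 21, while the Mir125 genes lie at ranks 49, 95 and 112, below Mir351. The levels of Mir125b-1 and Mir125b-2 are lower limits, and reads with several alignments were not assigned to any gene. Ranks over all reads were therefore not resolved.

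In singly aligned reads, the Mir99 or Mir100 gene of each locus exceeded the Mir125 gene in both libraries. On chromosomes 16 and 9 the Mir125b counts, and with them the sums of these loci, are lower limits. The locus on chromosome 16 (Mir99a and Mir125b-2) summed to 50847 ± 306 CPM, and that on chromosome 17 (Mir99b and Mir125a) to 20296 ± 1638 CPM. The locus on chromosome 9 (Mir100 and Mir125b-1) summed to 12781 ± 382 CPM. With TMM scaling the SDs were 1854, 1020 and 7.24 CPM on chromosomes 16, 17 and 9. The sum on chromosome 16 was 2.67 times that on chromosome 17 in replicate 1 and 2.36 times in replicate 2. The sum on chromosome 17 was 1.53 and 1.64 times that on chromosome 9. This order was seen in both libraries among singly aligned reads only. The gap between chromosomes 17 and 9 equals 1.07% of the reads with several alignments in replicate 1 and 1.27% in replicate 2. The chromosome 16 locus held 235339 and 209831 counts, against 2865223 and 2735942 reads with several alignments. The order of all 3 loci over all reads was therefore not resolved.

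Mir99a gave 72.2 reads for each read of Mir125b-2 in replicate 1 and 73.4 in replicate 2. Mir100 gave 9.87 and 8.91 reads for each of Mir125b-1. Mir99b gave 4.02 reads for each of Mir125a in both libraries, the smallest ratio. It is the only one of the 3 in which both 5p products are unique among the RefSeq entries. The first 2 ratios are upper limits on the ratio of all reads if the lost reads belong to their denominators alone. Whether Mir99a or Mir100 also lost reads was not tested. The order of the 3 ratios therefore was not compared as expression.

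As a share of the reads of both genes, Mir99b made up 80.1% in replicate 1, with an exact Clopper-Pearson 95% interval from 79.8% to 80.3%, and 80.1% in replicate 2 (79.8% to 80.3%). The difference in share between the libraries did not pass Fisher's exact test, two-sided and adjusted over the 3 loci (adjusted p = 0.943). Mir99a made up 98.6% (98.6% to 98.7%) in replicate 1 and 98.7% (98.6% to 98.7%) in replicate 2, with an adjusted exact p of 0.826. Mir100 made up 90.8% (90.6% to 91.0%) in replicate 1 and 89.9% (89.6% to 90.2%) in replicate 2, and this difference passed the exact test (adjusted p = 1.31e-06). These intervals and tests cover counting error only and compare 2 libraries.

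The let-7 gene in the middle of each locus was read differently. Mirlet7c-1, 721 bp after the start of Mir99a, had 121 and 126 CPM in replicates 1 and 2. Mirlet7a-2, 5291 bp after the start of Mir100, had 144 and 150 CPM. The 5p sequence of let-7c occurred in 2 genes of the RefSeq entries, and let-7a also has further copies, so both counts are lower limits, as for Mir125b. Mir99a had 417 reads for each of Mirlet7c-1 in replicate 1 and 395 in replicate 2, and Mir100 had 78.7 and 78.2 for each of Mirlet7a-2.

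Mirlet7e, between Mir99b and Mir125a, had no own-strand count here. The tables counted the overlapping minus-strand gene Gm25927 instead, and its opposite-strand reads, which match the strand of Mirlet7e, reached 4689 CPM in replicate 1 and 5204 CPM in replicate 2 on the same total. Against these reads Mir99b was 3.27 and 3.30 times as high, and Mir125a 0.814 and 0.821 times as high, in replicates 1 and 2. let-7e-5p occurred in 1 gene of the RefSeq entries. All 3 microRNAs of the chromosome 17 locus were thus readable by unique reads, and they lay within 4.02-fold of each other.

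**Figure D3:**
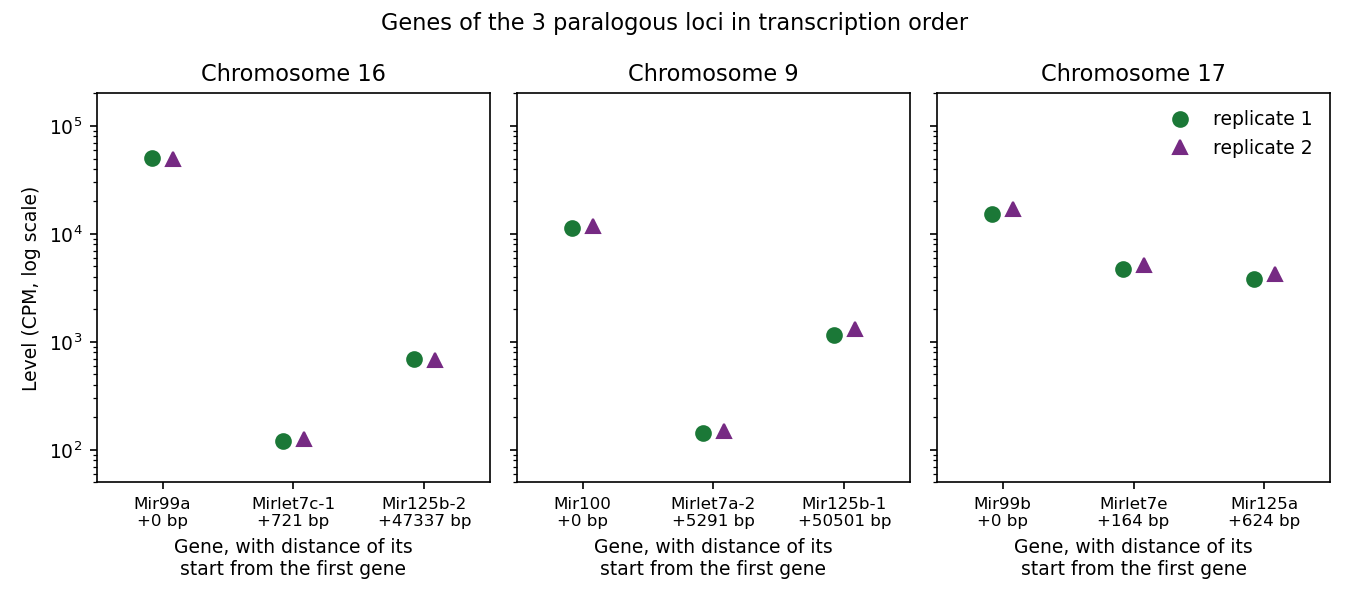
Levels in CPM on a log scale of the Mir99 or Mir100 gene, the let-7 gene and the Mir125 gene of each locus, with circles for replicate 1 and triangles for replicate 2 and the distance between gene starts under each name. The genes on chromosome 17 lie within 4.02-fold, and Mirlet7c-1, Mirlet7a-2 and the Mir125b copies lie far below Mir99a and Mir100. The 5p products of these 4 genes have other copies, so their levels are lower limits. The part of lost reads in this gap was not tested. Mirlet7e is drawn from the opposite-strand reads of Gm25927.

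Genes outside the families also carry these seeds or close relatives. The seed CCCUGAG was shared by 6 genes of the RefSeq entries, the 3 Mir125 genes and Mir351, Mir6367 and Mir6394. The sequence of Mir351, an X-linked gene of the cluster with Mir322 and Mir503, is shown beside that of miR-125a with the seed in capitals.
miR-125a-5p: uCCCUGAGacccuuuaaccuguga
miR-351-5p: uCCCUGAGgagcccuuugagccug
The sequences are the same over the first 8 bases and differ by 7 edits in all. In singly aligned reads the 3 Mir125 genes together had 5664 CPM in replicate 1 and 6272 CPM in replicate 2, against 8065 and 8059 CPM of Mir351. The Mir125 sum was thus 0.702 times Mir351 in replicate 1 and 0.778 times in replicate 2, again without the reads of whole miR-125b-5p. Mir6367 and Mir6394 had 0 counts in both libraries, which allows up to 0.651 CPM in replicate 1 and 0.724 CPM in replicate 2. Mir670, a listed relative whose 5p seed is shifted by 1 base, had 18 and 13 counts.

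The seed ACCCGUA belonged to Mir99a, Mir99b and Mir100 alone among the RefSeq entries. The Hox-cluster genes Mir10a and Mir10b are related in sequence, as shown by miR-10a-5p beside miR-100-5p.
miR-100-5p: aACCCGUAgauccgaacuugug
miR-10a-5p: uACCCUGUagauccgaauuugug
They are 3 edits apart, share a stretch of 11 bases and have different seeds. The 3 Mir99 and Mir100 genes summed to 77048 CPM in replicate 1 and 78864 CPM in replicate 2, against 14572 and 12462 CPM of the 2 Mir10 genes, a ratio of 5.29 and 6.33. Mir100 was close to Mir10b, at 1.02 times its level in replicate 1 and 1.20 times in replicate 2.

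The 2 libraries were then set against each other gene by gene, by an exact binomial test, two-sided, on the library totals. P-values were adjusted by Benjamini-Hochberg over 407 genes, those whose summed count reached 10. The test compares these libraries with counting noise, and not conditions. It called 5 of the 6 members, where 35.6% of all tested genes were called, and 78.6% of the 112 genes at least as abundant as Mir125b-2. The share of members called is thus near that of the genes at or above this level, which include the members themselves. At a 2-fold difference 0 of the 6 members passed, beside 0.983% of all genes tested. The median log2 ratio of replicate 2 over replicate 1 was 0.11 over the members, 0.04 over all genes tested and 0.02 over the 112 genes. These medians depend on the scaling. That over all genes tested was -0.02 with TMM scaling and -0.03 with DESeq2 size factors.

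The differences were small, and in 2 of the 3 loci the members' values lay close together. On chromosome 17, Mir99b and Mir125a had log2 ratios of 0.17 (95% counting interval 0.15 to 0.18) and 0.16 (0.13 to 0.19), with adjusted exact p-values of 2.33e-101 and 2.03e-25. The reads at Mirlet7e between them had a log2 ratio of 0.15. On chromosome 16, Mir99a had a log2 ratio of -0.01 (-0.02 to -0.0034; adjusted exact p = 0.0191) and Mir125b-2 one of -0.03 (-0.11 to 0.04; adjusted exact p = 0.606).

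On chromosome 9 the members differed, with a log2 ratio of 0.05 for Mir100 (0.03 to 0.06; adjusted exact p = 1.60e-06) and 0.19 for Mir125b-1 (0.14 to 0.25; adjusted exact p = 2.07e-11). In all, 4 members were called higher in replicate 2 and 1 lower, beside 19.9% of tested genes called higher (81 genes) and 15.7% called lower (64 genes). Of the 112 genes at least as abundant as Mir125b-2, 52 were called higher and 36 lower. With TMM scaling the split over all genes was 45 higher and 86 lower. The sizes depend on the scaling. Mir99a had a log2 ratio of -0.07 with TMM scaling (adjusted exact p = 2.12e-63) and -0.08 with DESeq2 size factors (adjusted exact p = 3.97e-81). With DESeq2 size factors Mir99b and Mir125a both had 0.09 and Mir125b-1 had 0.12. Mir100 turned to a log2 ratio of -0.015 with TMM scaling (adjusted exact p = 0.206) and -0.025 with DESeq2 size factors (adjusted exact p = 0.0188). Mir125b-2 was called lower with both scalings (adjusted exact p = 0.0316 and 0.0154), and Mir99a was not called with counts on either strand (adjusted exact p = 0.114). Markers of limb tissues moved between the same libraries. The log2 ratio was -0.45 for Mir206 of skeletal muscle and -0.36 for Mir203 of epidermis, against 0.09 for Mir140 of cartilage, 0.14 for Mir196b of the HoxA cluster and 0.02 for Mir126a of endothelium. Their part in the members' differences was not tested.

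**Figure D4:**
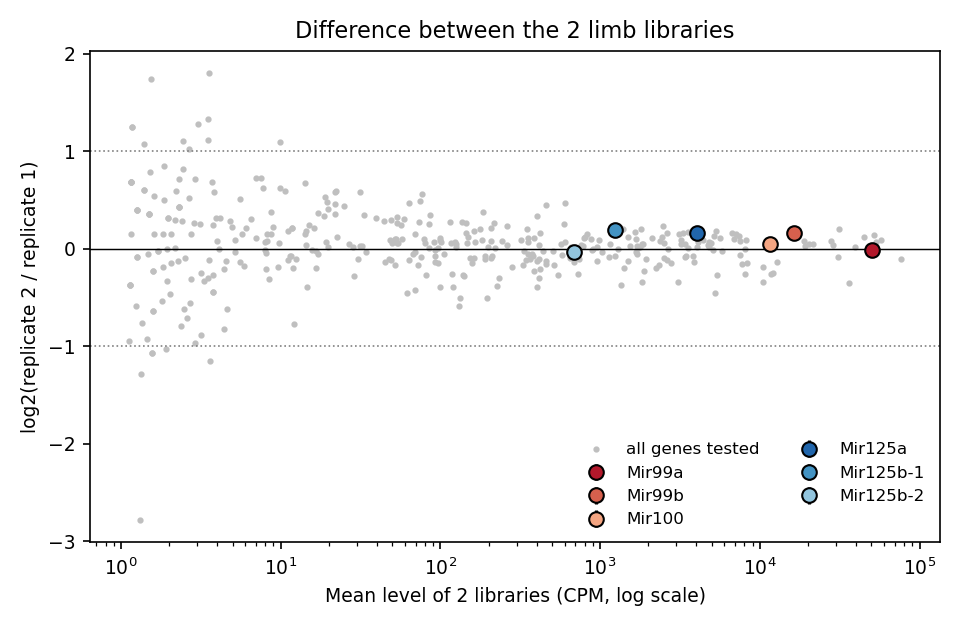
Log2 ratio of replicate 2 over replicate 1 against mean level in CPM on a log scale for the 407 tested genes, with the members coloured and bars for their 95% counting intervals, most of them shorter than the symbols. All 6 members lie between -0.03 and 0.19, far inside the dotted lines at a 2-fold difference.

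Of the 12 let-7 genes listed with the families for their shared loci and role in timing, 10 were tested, of which 4 were called higher in replicate 2 and 2 lower. Mirlet7a-2 and Mirlet7c-1 were not called, with log2 ratios of 0.06 and 0.07. Both Mir10 genes were called lower, Mir10b with a log2 ratio of -0.19 and Mir10a with -0.34. Mir351 had a log2 ratio of -0.0011 (adjusted exact p = 0.985). These calls stand beside 35.6% of all genes tested and 78.6% of the 112 genes at least as abundant as Mir125b-2. The let-7 genes lay on both sides of that level, and both Mir10 genes lay above it.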

How the data were processed

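Small RNA sequencing of 2 limb samples of 1 group was analysed. The authors deposited unnormalized whole-number counts for each gene. The build was mm10 and the annotation GENCODE M4, per the read-me texts deposited beside them. The aligner is not given in the sources used here, nor is the counting program. The tables have 3 count columns and 4 tally rows. The columns were taken as either-strand, own-strand and opposite-strand counts from their values, and own-strand counts were used. Tally rows stayed out of totals. Own-strand counts were 51.2% of all reads in replicate 1 and 49.4% in replicate 2.

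Symbols came from GENCODE M21 (GRCm38) by identifier for 1894 of 1973 genes, hosts from M21 and sequences from RefSeq. CPM used the own-strand sum. Log2 ratios carried a prior count of 0.5, and calls required an adjusted p under 0.05. Quasi-likelihood tests lack residual degrees of freedom with 1 library a side. Alternatives were other totals, TMM (edgeR 4.0.16), DESeq2 1.42.0 size factors, other strands and count filters, and leaving out a replicate. Tests used scipy 1.17.1 in Python 3.11.15 with R 4.3.3. The binomial test was also run on simulated counts, with planted changes in some genes and with none. Their noise was counting noise only, the noise the test assumes, so those runs do not cover variation between libraries. Named genes were the members, the let-7 genes of their loci, genes of the same seed, Mir10a and Mir10b, and rank neighbours of Mir99a and Mir125a. Members and lists were chosen with earlier results of these data known. The tables hold no molecular identifiers, so intervals and limits cover counting error only. Replicates are separate by their labels alone, so their spread may be partly technical.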

Additional observations from a re-analysis of the deposited data

Results flagged for a closer look

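Signal outside the own-strand measurement appeared inside the chromosome 17 locus. The reads on the strand opposite Gm25927, a minus-strand gene annotated from 17830343 to 17830459 on chromosome 17, averaged 4946 ± 365 CPM (SD, n = 2), with 21609 reads in replicate 1 and 21568 in replicate 2. A count of 0 would allow 0.651 and 0.724 CPM in these libraries. Its own strand had 0 counts in both. Mirlet7e is annotated on the plus strand from 17830352 to 17830444, inside the same span. The 6 members had 0 opposite-strand counts in both libraries.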

How the results depend on the processing

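Levels moved with the total used. With reads of several alignments in the total, the 6 members summed to 51143 CPM, and the loci on chromosomes 16, 9 and 17 to 30992, 7788 and 12362 CPM. With all reads in the total these were 42208, 25581, 6427 and 10200 CPM. With counts on either strand, or own and opposite strands added, the members summed to 81288 CPM and the loci on chromosomes 16 and 9 to 49248 and 12380 CPM. Mean sums with TMM or DESeq2 scaling, and the chromosome 17 sum by strand, moved by less than 1 SD, but the SD of the chromosome 16 sum was 306 CPM as reported, 1854 CPM with TMM and 2099 CPM with DESeq2 size factors, and that of chromosome 9 was 382, 7.24 and 68.7 CPM. Strand could not change the within-locus ratios, since no member had opposite-strand counts. Without either replicate, the members' sum ranged from 82712 to 85136 CPM, and the ratios from 72.2 to 73.4, 8.91 to 9.87 and 4.02 to 4.02 on chromosomes 16, 9 and 17. The loci summed to 50630 to 51063, 12511 to 13051 and 19138 to 21455 CPM. A 2-fold requirement reduced the called genes to 4 and the called members to 0. Other settings called 131 to 155 genes and 4 to 6 members. The share of genes called was 35.6% as reported, 19.8% of 687 genes without a count filter and 53.1% of 275 genes with at least 100 counts. Of the 145 calls, 81 were higher and 64 lower in replicate 2, against 45 and 86 with TMM and 42 and 96 with DESeq2 size factors. The log2 ratio of Mir100 reversed to -0.015 and -0.025 in these, and the cause was not tested. No paired analysis was possible because there was 1 group.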
